A study of Mus musculus with 27 samples.

Results

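The 40 genes described here drive DNA replication and cell division. They were chosen by symbol from the 23420 genes of the count table. Of them, 16 serve DNA replication (Mcm2 to Mcm7, Cdc6, Cdt1, Gins2, Pcna, Rrm1, Rrm2, Tyms, Dut, Tk1 and Ccne1) and 24 serve mitosis and the phase before it (Mki67, Top2a, Hmgb2, Ccna2, Ccnb1, Ccnb2, Cdk1, Cdc20, Ube2c, Bub1, Bub1b, Aurka, Aurkb, Plk1, Birc5, Cenpa, Cenpe, Cenpf, Kif11, Kif20a, Kif23, Tpx2, Nusap1 and Prc1). The study fed C57BL/6 mice water (control) or 15% ethanol for 8 weeks and compared colon with jejunum. RNA came from the intestinal tissue itself or from organoids, three-dimensional epithelial cultures grown from intestinal crypts, and was sequenced as 3′ tags. The 27 libraries form 8 groups. Colon organoids were sequenced in 2 libraries per diet and jejunum organoids in 4 per diet. Colon tissue has 4 libraries per diet, and jejunum tissue has 3 from control mice and 4 from mice on ethanol. The mice carried no stated genetic change, their age and sex are not stated in the sources used here, and nothing says that organoids were exposed to ethanol in culture.

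A dividing cell first licenses its replication origins: Cdc6 and Cdt1 load the ring-shaped MCM helicase (Mcm2 to Mcm7), which the GINS complex then activates, while Rrm1, Rrm2, Tyms, Tk1 and Dut supply and guard the deoxynucleotide pool. It then enters mitosis under Cdk1 with cyclins A2, B1 and B2. It leaves mitosis when the anaphase-promoting complex, with Cdc20 and Ube2c, marks securin and the mitotic cyclins for destruction. In the intestine these events take place in the crypt, in stem cells and in the transit-amplifying cells above them, and stop as cells move out and differentiate.

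Promoter motifs differed in share between the 2 classes, with no test of that difference, and are shown first because these genes are known to be switched on in waves through elements close to their start sites. RefSeq promoter sequence (build GRCm38.p6, 250 bases before to 50 after each start) was matched for 34 of the 40 genes, 14 of replication and 20 of mitosis. The stretches below hold 120 bases of that window, run 5′ to 3′ on the gene's own strand and end at the base before the start. Capitals mark 3 kinds of motif on either strand: the cell cycle homology region (TTTGAA), the box bound by nuclear factor Y (CCAAT) and an E2F-type core (TTTCCCGC, TTTGGCGC, TTTCGCGC or TTTGCCGC). A capital run longer than 1 motif joins overlapping matches. The 4 mitosis genes and 2 replication genes on which later results turn are these:
Cdc20 (chr4:118437344-118437463, minus strand): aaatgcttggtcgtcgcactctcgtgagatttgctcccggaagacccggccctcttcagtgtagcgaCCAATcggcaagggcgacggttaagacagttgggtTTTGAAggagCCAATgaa
Ube2c (chr2:164769809-164769928, plus strand): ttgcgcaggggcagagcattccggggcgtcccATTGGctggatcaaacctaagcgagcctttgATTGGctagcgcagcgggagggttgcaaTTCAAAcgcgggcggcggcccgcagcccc
Hmgb2 (chr8:57511723-57511842, plus strand): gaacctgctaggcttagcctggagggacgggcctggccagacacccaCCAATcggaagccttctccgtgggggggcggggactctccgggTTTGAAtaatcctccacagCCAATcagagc
Cdk1 (chr10:69352913-69353032, minus strand): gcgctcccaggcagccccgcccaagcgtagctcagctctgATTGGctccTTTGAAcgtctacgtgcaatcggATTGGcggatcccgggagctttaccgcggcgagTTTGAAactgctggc
Mcm6 (chr1:128359706-128359825, minus strand): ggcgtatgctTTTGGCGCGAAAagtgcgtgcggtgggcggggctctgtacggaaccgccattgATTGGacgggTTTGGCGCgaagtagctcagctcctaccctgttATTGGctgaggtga
Pcna (chr2:132253181-132253300, minus strand): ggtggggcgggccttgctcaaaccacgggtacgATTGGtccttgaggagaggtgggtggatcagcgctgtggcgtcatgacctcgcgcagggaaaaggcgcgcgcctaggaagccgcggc

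The cell cycle homology region was present in 15 of the 20 mitosis promoters (75%) and in 1 of the 14 replication promoters (7.14%), against 20.2% of the 27025 genes with a promoter in the table (a gene with several listed starts counts once). The exception among replication genes was Mcm2. The CCAAT box was present in 18 of 20 mitosis promoters (90%) and 8 of 14 replication promoters (57.1%), against 41.1% of all genes. Of the 10831 tested genes with a promoter, 14.6% held the homology region and 42.6% the CCAAT box. The E2F-type core ran the other way, in 6 of 14 replication promoters (42.9%; Cdc6, Cdt1, Mcm3, Mcm5, Mcm6 and Mcm7) and 1 of 20 mitosis promoters (5%), against 2.6% of all genes. The share of this core among tested genes was 4.37%, near that of the mitosis promoters. The 1 mitosis promoter with this core was that of Cdk1, with its match outside the stretch printed above. All of these are matches of letters in a window and say nothing of binding in these samples.

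Levels are given per 1000000 counts outside Rn45s (CPM). Rn45s is the ribosomal RNA precursor gene and took 18.3% to 84.3% of the counts of a library. Counts outside Rn45s ran from 684906 to 7606668 per library, and counts of the 40 genes from 789 to 23139. The shallow libraries in these genes were few: the control colon organoid library 2 held 789 counts of them, with 11 of the 40 at 0, and the 3 control jejunum tissue libraries held 945 to 1749. At the depth of that organoid library 3 counts equal 3.67 CPM, the limit that a count of 0 allows. All 40 genes passed the filter on low counts in each fit. Fold changes come from edgeR's quasi-likelihood test with TMM scaling, on a log2 scale with the standard error, and a gene was called at a Benjamini-Hochberg adjusted p under 0.05 over all genes tested. Epcam, an epithelial surface marker, was present in all 8 groups (means 632 to 2709 CPM), whereas the T cell marker Cd3e was at 0 in all 12 organoid libraries and at most 16.7 CPM in tissue. Sums of other immune marker lists in colon organoids came from part of each list. In control colon organoids 5 of 7 T cell and 4 of 8 macrophage markers had no count. Neither had 3 of 8 germinal centre and 6 of 8 B cell markers. B cell markers summed to 0 and 58.7 CPM there and to 3.52 and 6.69 CPM in ethanol colon organoids. Whether immune cells were present was not tested. In colon organoids T cell markers summed to 0.491 to 12.2 CPM, against 5.23 to 59.8 CPM in tissue and 0.291 to 2.555 CPM in jejunum organoids. Macrophage markers summed to 50.1 to 456 CPM in colon organoids, 102 to 244 CPM in tissue and 10.9 to 15.99 CPM in jejunum organoids. Germinal centre markers summed to 320 to 1137, 74.9 to 168 and 30.7 to 46.04 CPM in the same order.

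Summed by class, both classes had their highest group means in jejunum organoids. The lowest of the 8 group means was that of control jejunum tissue in both (302 CPM for replication and 796 CPM for mitosis). Summed over the 16 replication genes, the level was 1365, 1124, 1662 and 1102 CPM in the 4 control jejunum organoid libraries and 1281, 1349, 1285 and 1553 CPM in the ethanol ones. Control colon organoids were at 1201 and 395 CPM, and ethanol colon organoids at 508 and 444 CPM. Colon tissue spanned 400 to 700 CPM in controls and 434 to 1109 CPM after ethanol, and jejunum tissue 181 to 380 CPM and 267 to 575 CPM. No jejunum organoid library overlapped any tissue library of the jejunum in this sum, and the sums of control and ethanol libraries overlapped in each of the 4 settings.

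Summed over the 24 mitosis genes, jejunum organoids were again the highest group, at 2342 to 3452 CPM in controls and 2845 to 3486 CPM after ethanol. Colon tissue was at 911 to 1638 and 799 to 2019 CPM, and jejunum tissue at 466 to 1000 and 714 to 1488 CPM, with overlap between them. The colon organoids were at 2091 and 570 CPM (control) and 968 and 912 CPM (ethanol). By group mean, an organoid group of the jejunum was the highest of the 8 for 35 of the 40 genes (29 in ethanol and 6 in control libraries), and a control colon organoid mean for the other 5. The lowest mean fell in control jejunum tissue for 20 genes and in ethanol colon organoids for 10.

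**Figure D1:**
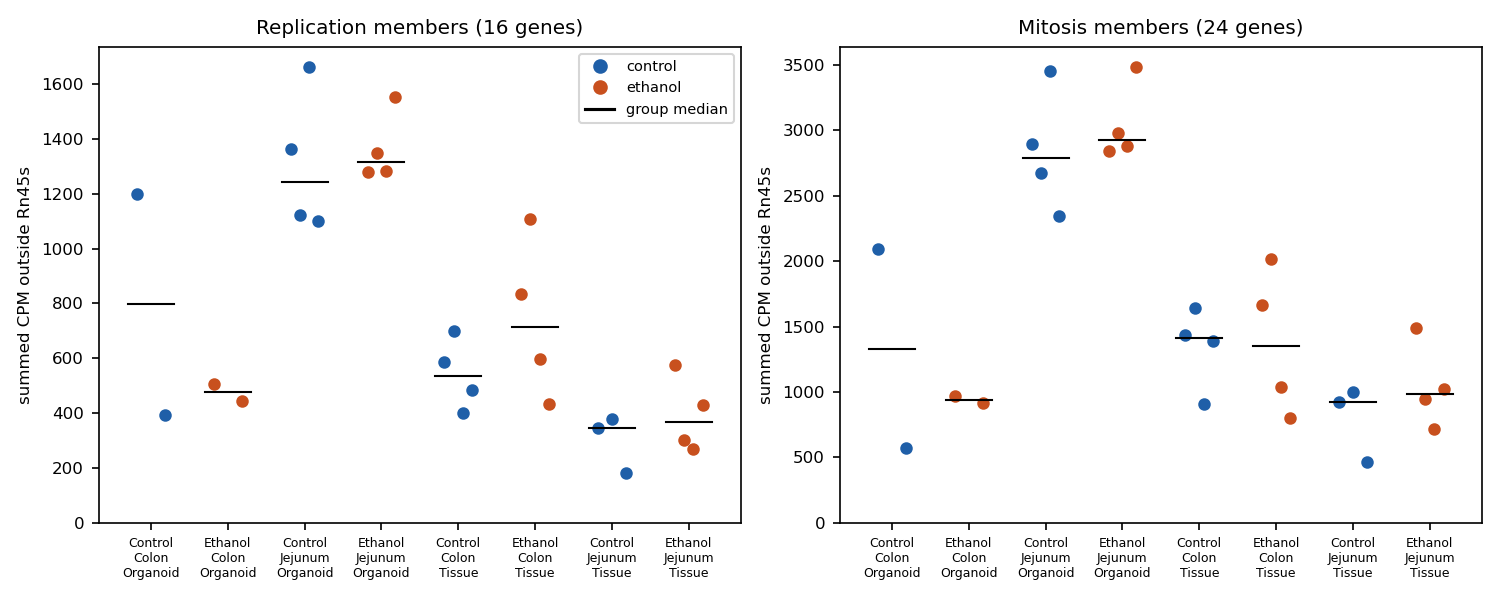
Summed level of the 16 replication genes (left) and the 24 mitosis genes (right) in CPM outside Rn45s, 1 point per library, with a line at each group's median. The jejunum organoid libraries lie at 1102 to 1662 CPM (replication) and 2342 to 3486 CPM (mitosis), and the 2 control colon organoid libraries lie far apart, at 1201 and 395 CPM and at 2091 and 570 CPM.

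The 2 control colon organoid libraries did not resemble each other in these genes. Library 1 was above library 2 for 34 of the 40 genes, and the sum over all 40 differed 3.41-fold, against 1.09-fold in ethanol colon organoids and 1.22-fold to 2.54-fold in the other groups. The coefficient of variation of the 40 genes had a median of 89.9% in the controls and of 23.1% after ethanol. Of the 11 genes without a count in library 2 (Mcm2, Gins2, Rrm1, Dut, Ccne1, Ccnb2, Bub1b, Aurkb, Plk1, Kif20a and Nusap1), Dut, which clears dUTP, was at 127 CPM in library 1 and Rrm1, the large subunit of ribonucleotide reductase, at 96.3 CPM. Ccne1, the cyclin of entry into S phase, was at 80.5 CPM in library 1 and at 0 in library 2. Cdc20 and Cenpf, in contrast, were at 72.2 and 74.5 CPM and at 82.5 and 75.8 CPM. Library 2 was also the shallowest of the 12 organoid libraries, and the part of depth in this gap was not tested. Because these 2 libraries are the only controls for the colon organoids, the counts and most of the named genes that rest on them are also given without each of them.

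**Figure D2:**
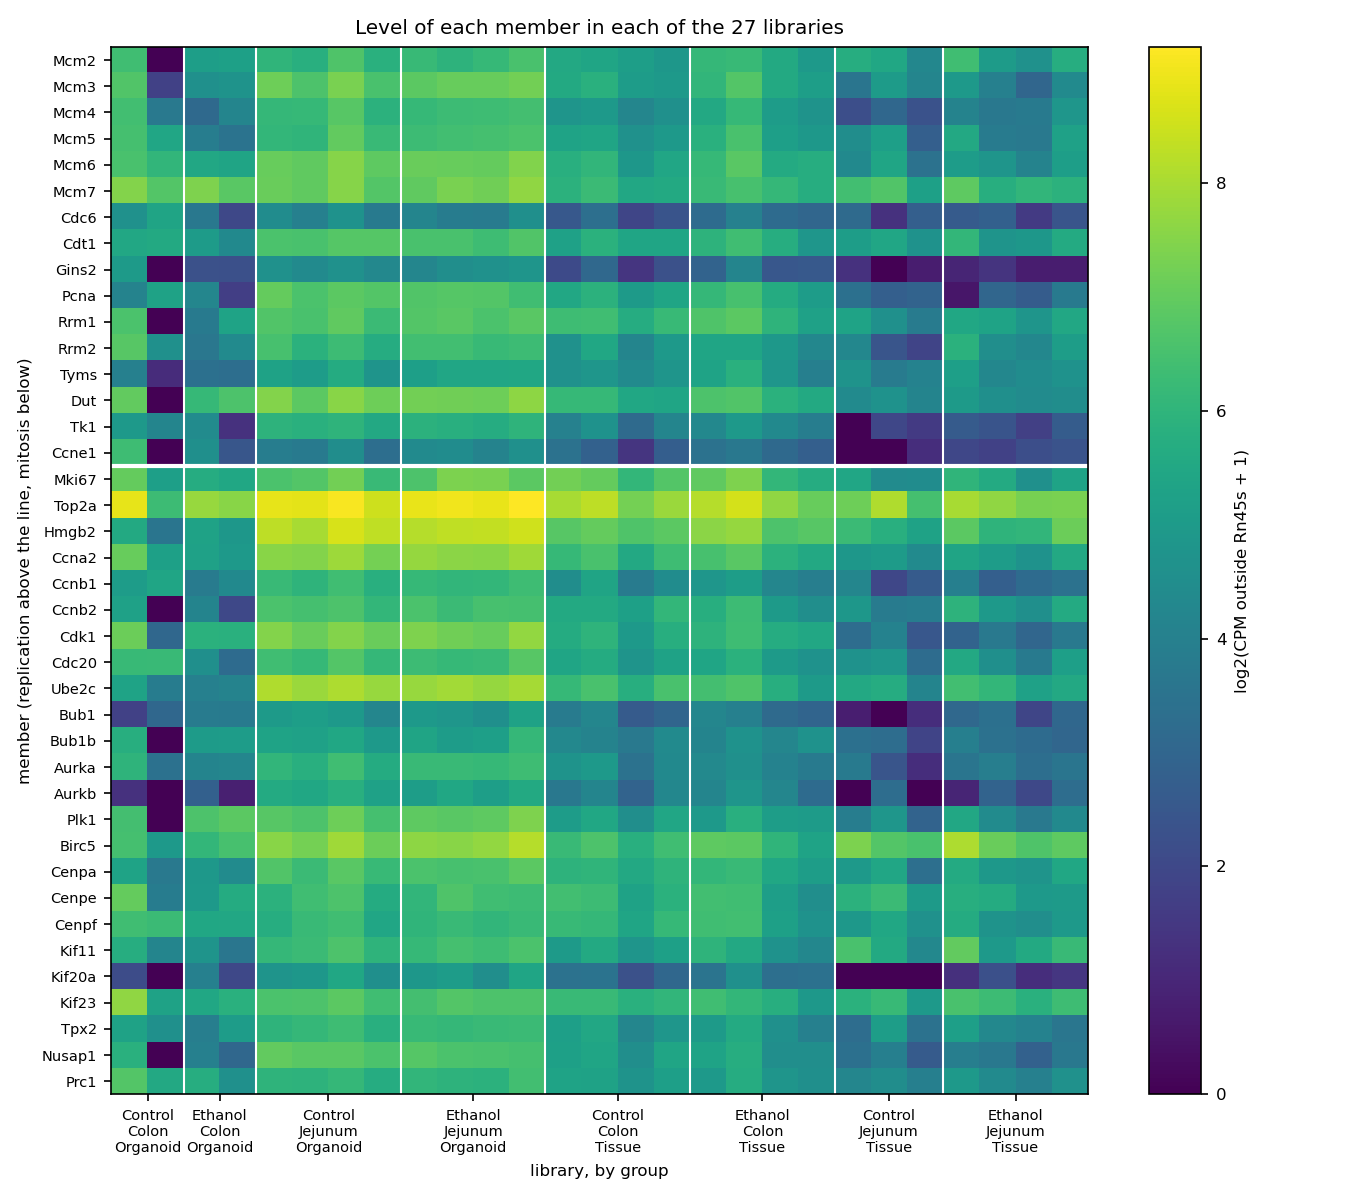
Level of each of the 40 genes (rows, replication above the white line and mitosis below) in each of the 27 libraries (columns, by group), coloured as log2(CPM outside Rn45s + 1). The jejunum organoid columns are the brightest for most rows, and the second control colon organoid column holds 11 genes at 0 next to a first column with levels up to 456 CPM (Top2a).

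Growth as organoids went with higher levels of both classes in the jejunum. In control libraries 31 of the 40 genes were higher in jejunum organoids than in jejunum tissue and 0 were lower by edgeR's quasi-likelihood test, where 21.6% of the 14785 genes tested were higher and 29.7% lower. The median log2 difference was 2.10 over the 40 genes and -0.02 over all genes. In ethanol libraries 28 were higher and 0 lower (18.8% and 35.2% of all genes), with medians of 1.41 and -0.36. Control and ethanol comparisons use separate libraries, and 27 genes were called in both, 87.1% of the 31 and 96.4% of the 28. By class, 12 of 16 replication and 19 of 24 mitosis genes were called in controls, and 10 of 16 and 18 of 24 after ethanol.

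Pcna, the sliding clamp of DNA polymerase, was at 130, 94.8, 116 and 106 CPM in control jejunum organoids and at 9.44, 5.84 and 6.62 CPM in control jejunum tissue. Every organoid library stood above every tissue library, with a log2 difference of 3.48 ± 0.58 (SE; adjusted p = 1.64e-05, edgeR). Cdk1, the kinase that starts mitosis, was at 178, 134, 179 and 137 CPM against 8.71, 16.1 and 4.64 CPM, a log2 difference of 3.73 ± 0.58 (adjusted p = 6.42e-06, edgeR). Again no library of one kind came near the other.

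Tk1, the salvage kinase for thymidine, was at 46.3 to 62.4 CPM in control jejunum organoids and at 0, 2.92 and 1.99 CPM in tissue. Its log2 difference was 4.86 ± 0.72 (adjusted p = 3.28e-06, edgeR) in controls and 3.19 ± 0.47 in ethanol libraries, where tissue reached 5.39 CPM. Other called genes were Mcm4 and Mcm6 of the helicase, at 3.64 ± 0.56 and 2.30 ± 0.37, and cyclin A2 (Ccna2) at 2.42 ± 0.37. Mki67, the source of the proliferation antigen Ki-67, differed less, at 1.48 ± 0.44 in control libraries (adjusted p = 0.00606, edgeR) and 1.15 ± 0.37 in ethanol libraries (adjusted p = 0.0103, edgeR). Its levels were 96.3, 105, 150 and 73.7 CPM in control organoids and 42.1, 20.4 and 21.2 CPM in control tissue.

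Kif20a, a kinesin of cytokinesis, had no count in the 3 control jejunum tissue libraries and 22.8 to 43.4 CPM in control jejunum organoids. Taking 3 counts over the tissue group as the floor (0.840 CPM), it was at least 36.0-fold higher in the organoids. A few genes of the mitotic apparatus overlapped between the 2 kinds of material. Birc5 (survivin, of the chromosomal passenger complex) was at 138 to 233 CPM in control jejunum organoids and at 167, 107 and 94.0 CPM in tissue, and the groups overlapped. Cenpe, a kinetochore motor, was at 49.3 to 96.8 CPM against 58.8, 75.9 and 31.1 CPM.

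Markers of the cells present moved with this contrast. The summed level of 12 enterocyte markers was 27670 to 35550 CPM in control jejunum tissue and 4435 to 9659 CPM in control jejunum organoids, and that of 12 crypt stem cell markers was 308 to 434 CPM against 1304 to 1871 CPM. The ethanol libraries showed the same order, with enterocyte sums of 23070 to 40470 and 3288 to 9603 CPM and crypt stem sums of 367 to 603 and 1333 to 1587 CPM. Their part in the difference was not tested, and in RNA from whole samples fewer dividing cells and less RNA per dividing cell cannot be told apart. The count of higher genes ranged from 26 to 34 in control and from 24 to 32 in ethanol libraries when any 1 library was left out.

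In organoids the called genes were all lower in colon than in jejunum. In control organoids 18 of the 40 genes were lower in colon than in jejunum and 0 were higher, where edgeR called 26.1% of 12922 genes lower and 23.8% higher. After ethanol 28 were lower and 0 higher (20.3% and 25.6% of all genes). The median log2 difference was -1.20 over the 40 genes and -0.10 over all genes in controls, and -1.94 and 0.07 after ethanol. All 18 genes called in the control organoids were also called in the ethanol organoids, where they made up 64.3% of the 28.

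The mitosis genes with the smallest p in controls were Ube2c, Hmgb2 and Aurkb. Ube2c, the ubiquitin-conjugating enzyme of the anaphase-promoting complex, was at 39.3 and 13.4 CPM in control colon organoids, at 15.1 and 16.4 CPM in ethanol colon organoids, and at 212 to 275 CPM in the 8 jejunum organoid libraries. Its log2 difference was -3.37 ± 0.36 in controls (adjusted p = 2.14e-05, edgeR) and -3.92 ± 0.37 after ethanol (adjusted p = 1.2e-05, edgeR). Hmgb2, a chromatin protein of dividing cells, was at 46.7 and 11 CPM and at 38.3 and 28.2 CPM in the colon, against 256 to 399 CPM in the jejunum. Aurkb, the kinase of the chromosomal passenger complex, was at 1.47 and 0 CPM in control colon organoids and at 37.8 to 54.4 CPM in control jejunum organoids, and its log2 difference was -5.68 ± 0.73 (adjusted p = 7.94e-05, edgeR). For these 3 genes no colon library overlapped a jejunum library. Without control colon organoid library 1 and without library 2, the control log2 difference was -4.58 and -2.84 for Ube2c and -5.24 and -2.96 for Hmgb2, called each time. Aurkb was at -5.11 without library 2, and library 2 alone holds no count of it.

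Of the replication genes, 5 of 16 were lower in control colon organoids and 10 of 16 in ethanol ones. Pcna was at 16.2 and 37.9 CPM in control and at 17.6 and 2.23 CPM in ethanol colon organoids, with log2 differences of -2.43 ± 0.51 and -3.21 ± 0.53 from the jejunum. Cdt1, the licensing factor, was at 45.2 and 46.4 CPM in control colon organoids and at 93.3 to 109 CPM in control jejunum organoids, a log2 difference of -1.42 ± 0.25 (adjusted p = 0.000656, edgeR). Mcm6 was lower by -1.07 ± 0.25 in controls and by -1.80 ± 0.27 after ethanol. Mki67 was not called in controls (-0.54 ± 0.44, adjusted p = 0.33, edgeR) and was lower after ethanol (-1.57 ± 0.46, adjusted p = 0.016, edgeR). Without control colon organoid library 1 and without library 2, Pcna was at -1.95 and -2.97, Cdt1 at -1.51 and -1.35 and Mcm6 at -1.47 and -0.79 in controls, all called. Mki67 was lower without library 1 (-1.96, adjusted p = 0.0012, edgeR) and at 0.12 without library 2 (adjusted p = 0.785, edgeR).

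The control count rested on which colon library was used: without library 1, 35 genes were lower (35.7% of 13948 genes), and without library 2, 16 were lower (27.7% of 13914) and 2 higher (26.3%). With a spread estimated for each group in limma-voom, 1 gene was lower in controls. Over all 12922 genes, 1032 were then called in either direction, against 6436 in the main fit. The labels give the same donor numbers to colon and jejunum. With the donor as a block 4 genes were lower in controls and 8 after ethanol. Of all 12922 genes, the block called 1064 and 902 in either direction, against 6436 and 5928 in the main fit. Ube2c was called under all 15 alternatives in both comparisons. Enterocyte, Paneth cell and goblet cell markers moved with the segment in organoids. Enterocyte markers summed to 66.8 and 90.4 CPM in control colon and 4435 to 9659 CPM in control jejunum organoids. The 8 Paneth cell markers summed to 132 to 175 and 9606 to 15910 CPM. The 9 goblet cell markers summed to 307 to 1578 and 4445 to 7136 CPM. After ethanol the enterocyte sums were 367 to 398 and 3288 to 9603 CPM, the Paneth sums 99.6 to 309 and 7699 to 13220 CPM, and the goblet sums 3007 to 3583 and 3976 to 5165 CPM. Colonocyte markers summed to 1125 and 2786 CPM in control colon and 1338 to 2205 CPM in control jejunum organoids. After ethanol these were at 10040 and 13890 against 1357 to 1832 CPM. Crypt stem cell markers summed to 2592 and 2359 CPM in control colon and 1304 to 1871 CPM in control jejunum organoids. After ethanol these were at 1554 and 1189 against 1333 to 1587 CPM. The part of all these markers in the segment difference was not tested.

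In tissue the called genes were mostly higher in colon. The share called higher was near that of all genes, and the share called lower was below it. In control tissue 13 of the 40 genes were higher in colon than in jejunum and 1 was lower, where 25% of 13434 genes were higher and 17.1% lower. After ethanol 8 were higher and 3 lower (26% and 22.1% of all genes), and 6 higher genes were shared, 46.2% of the 13 and 75% of the 8: Pcna, Dut, Tk1, Cdk1, Kif20a and Nusap1. The median log2 difference was 0.82 over the 40 genes and 0.36 over all genes in controls, and 0.24 and 0.17 after ethanol. The control median of the 40 moved with single left-out libraries. It was 0.49 without jejunum library 3 and 1.01 without jejunum library 2, with 0.39 over all genes each time.

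Cdk1 was at 49.5, 61.4, 30.4 and 54.0 CPM in control colon tissue and at 8.71, 16.1 and 4.64 CPM in control jejunum tissue. The groups did not overlap, and the log2 difference was 2.03 ± 0.40 in controls (adjusted p = 0.000556, edgeR) and 2.03 ± 0.31 after ethanol (adjusted p = 4.68e-05, edgeR). Pcna was at 31.0 to 59.4 CPM in control colon tissue, a log2 difference of 2.13 ± 0.59 (adjusted p = 0.008, edgeR), and at 33.3 to 89.5 CPM after ethanol against 0.476 to 12.8 CPM in the jejunum. Tk1, Mcm4 and Bub1, a kinase of the spindle checkpoint, were higher by 3.06 ± 0.69, 1.97 ± 0.47 and 3.23 ± 0.82 in controls. Kif20a was at 3.84 to 10.5 CPM in control colon tissue, at least 9.39-fold above the floor of the jejunum.

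Mki67 was at 150, 129, 67.5 and 105 CPM in control colon tissue, above each control jejunum tissue library, with a log2 difference of 1.55 ± 0.41 (adjusted p = 0.00637, edgeR). After ethanol it was at 124, 168, 66.5 and 50.1 CPM in the colon and at 64.3, 48.1, 23.5 and 38.9 CPM in the jejunum, and was not called (0.67 ± 0.35, adjusted p = 0.122, edgeR). Birc5 went against the others, at 54.9 to 97.8 CPM in control colon tissue and 94.0 to 167 CPM in jejunum tissue, a log2 difference of -1.08 ± 0.36 (adjusted p = 0.0225, edgeR). After ethanol it was lower by -1.42 ± 0.34, and 2 kinesins, Kif23 of the central spindle (-0.99 ± 0.26) and Kif11 of the bipolar spindle (-1.45 ± 0.48), were lower as well.

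These tissue counts depended on the scaling. Dividing by the counts outside Rn45s without TMM moved the median log2 difference of all genes from 0.36 to 0.76 in controls and from 0.17 to 0.70 after ethanol, and 25 genes were then higher and 0 lower in controls, and 17 higher and 1 lower after ethanol. Of single libraries left out in controls, colon library 1 or 3 or jejunum library 1 gave 0 lower genes, colon library 2 gave 2 and jejunum library 3 gave 3. Crypt stem cell markers moved with the segment in tissue, at 1046 to 1619 CPM in control colon and 308 to 434 CPM in control jejunum, as did 9 smooth muscle markers, at 4623 to 19460 CPM and 938 to 3384 CPM. Their part was not tested.

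The difference between the segment effects in organoids and tissue was seen first and tested afterwards on the same libraries, so the test describes it and is not independent of that choice. The difference between the 2 segment effects, colon minus jejunum in organoids less colon minus jejunum in tissue, was negative for 37 of the 40 genes in control libraries. It was called for 24 genes, all negative, where edgeR called 25.3% of 14785 genes negative and 15.2% positive. The median was -2.21 over the 40 genes and -0.56 over all genes. In ethanol libraries 26 genes were called, all negative (16.9% of all genes negative and 23.7% positive), with medians of -2.11 and 0.23. The 2 sets shared 22 genes, 91.7% and 84.6% of them.

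Pcna was called in both treatments, with a difference of -4.66 ± 0.83 in control (adjusted p = 7.42e-05, edgeR) and -5.65 ± 0.79 in ethanol libraries (adjusted p = 2.74e-06, edgeR). Tk1 was at -4.61 ± 0.95 and -3.87 ± 0.75, and Mcm4 at -2.90 ± 0.76 and -3.50 ± 0.68. Of the mitosis genes, Hmgb2 was at -4.31 ± 0.58 and -3.36 ± 0.53, and Ube2c at -4.15 ± 0.59 and -3.52 ± 0.56. Mki67 was at -2.18 ± 0.64 (adjusted p = 0.00799, edgeR) and -2.19 ± 0.61 (adjusted p = 0.0051, edgeR). Without control colon organoid library 1, 34 genes were called negative in controls (31.3% of 15731 genes), and without library 2, 17 (22.9% of 15676). Mcm4 was at -5.15 and -2.13 in these fits, and Mki67 at -3.64 and, no longer called, at -1.51 (adjusted p = 0.0676, edgeR). Single left-out libraries gave 21 to 28 genes after ethanol. With the donor as a block 23 and 25 were called, and with a spread per group in limma-voom 9 were called in controls. Of all 14785 genes, the block called 4877 and 5186, against 5984 and 6002 in the main fit. The spread per group called 2217 in controls.

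**Figure D3:**
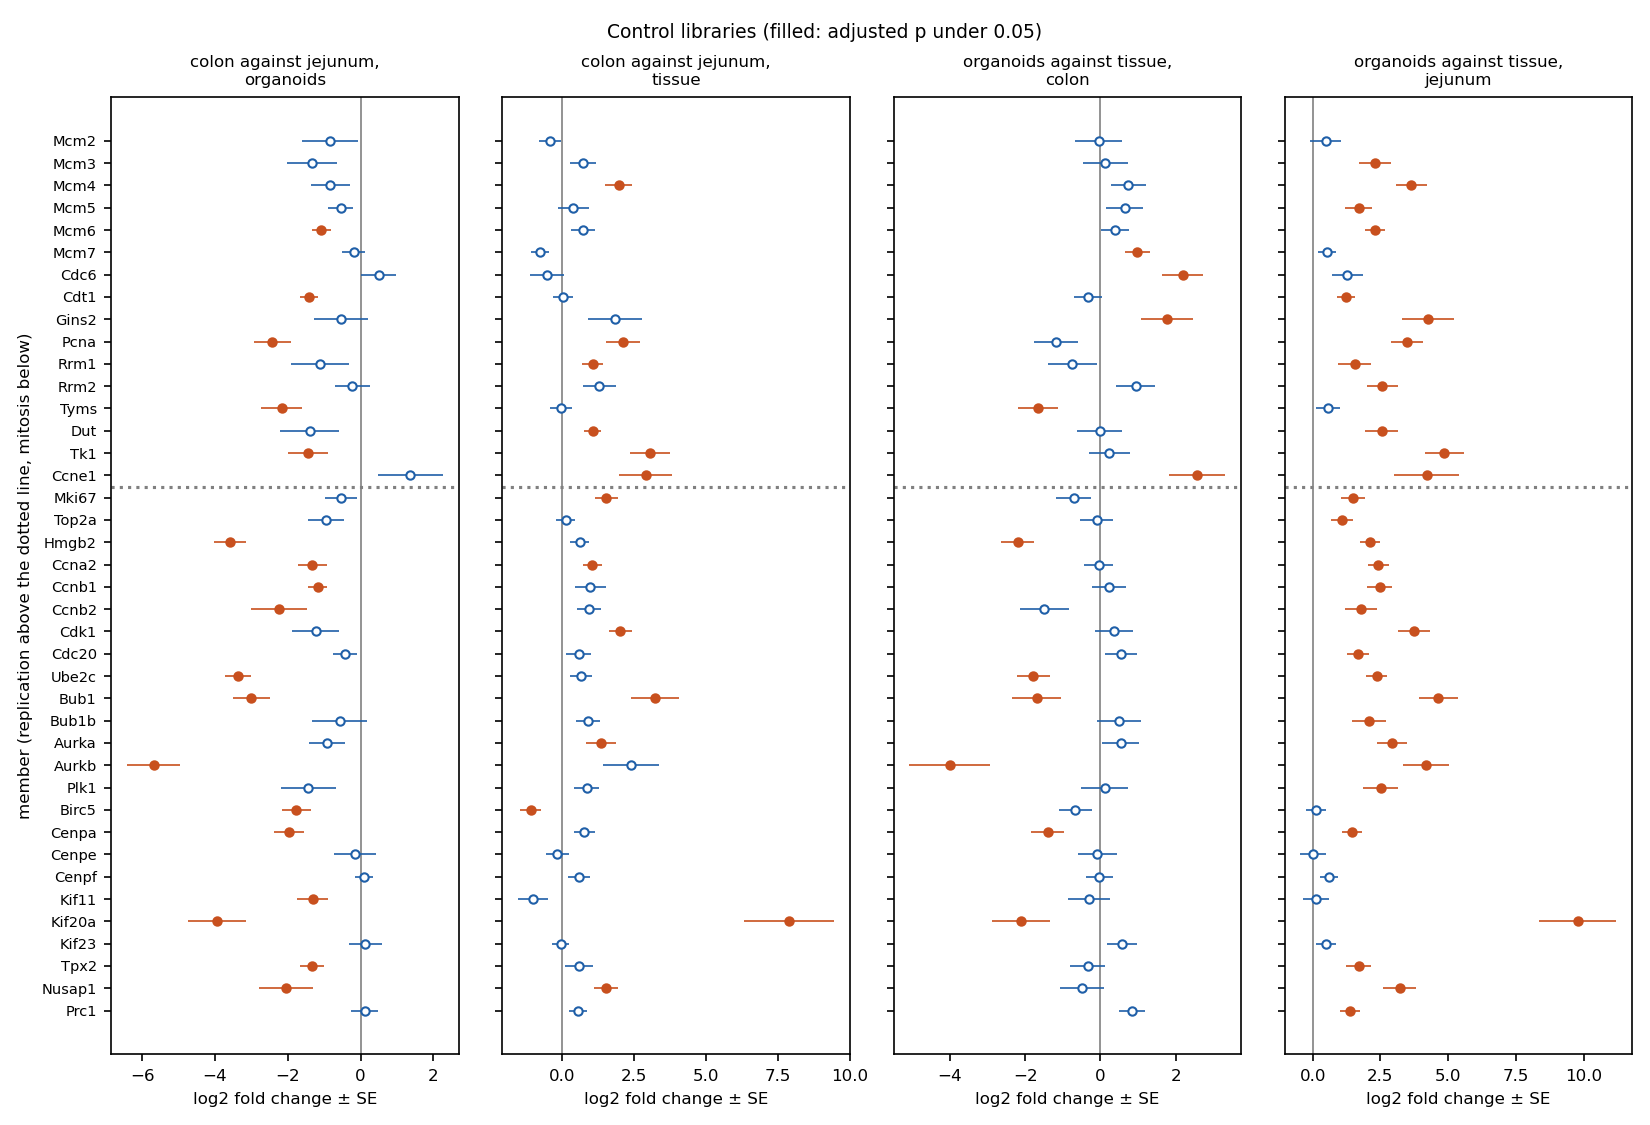
Log2 fold change ± SE of each gene in the control libraries for colon against jejunum (left pair, organoids and tissue) and for organoids against tissue (right pair, colon and jejunum), with filled points where the adjusted p was under 0.05. Most points lie left of 0 for the segment in organoids (18 lower, 0 higher) and right of 0 in tissue (13 higher, 1 lower), and the jejunum panel at the far right has 31 filled points, all above 0. The horizontal scales differ between panels, and the Kif20a points of both tissue contrasts that include the jejunum rest on a group without a count.

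In the colon, the called genes went in both directions between organoids and tissue, in controls at shares below those of all genes. In control libraries 4 genes were higher in organoids and 7 lower, where 14.5% of 14785 genes were higher and 31.7% lower. After ethanol 2 were higher and 11 lower (14.6% and 18.7% of all genes), a share below that of all genes for higher and above it for lower. The median log2 difference was -0.03 over the replication and mitosis genes and -0.46 over all genes in controls, and -0.68 and -0.19 after ethanol. The median of these genes thus lay above that of all genes in controls and below it after ethanol. Hmgb2, Ube2c, Aurkb and Tyms, which makes thymidylate, were lower in both, and Mcm7 was higher in both. Hmgb2 was at 99 to 129 CPM in control colon tissue against 46.7 and 11 CPM in the organoids, a log2 difference of -2.20 ± 0.44 (adjusted p = 0.000273, edgeR). Ube2c was lower by -1.79 ± 0.44 in control and by -2.04 ± 0.45 in ethanol libraries.

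Among genes higher in control colon organoids, the licensing factor Cdc6 was at 24.1 and 40.3 CPM against 2.74 to 9.33 CPM in tissue, a log2 difference of 2.19 ± 0.54 (adjusted p = 0.00212, edgeR). Mcm7 was at 178 and 105 CPM against 44.2 to 76.6 CPM, with 0.99 ± 0.34 (adjusted p = 0.0202, edgeR). Ccne1 (2.57 ± 0.75) was high in library 1 alone. Library 2 holds no count of it, and at the floor of 3 counts in that library (3.67 CPM) it was at least 1.61-fold lower there than the tissue mean of 5.91 CPM. After ethanol Plk1, a kinase of mitotic entry, was higher in organoids at 96.7 and 115 CPM against 30 to 55.3 CPM (1.52 ± 0.59, adjusted p = 0.0482, edgeR), and Pcna was lower (-2.37 ± 0.61, adjusted p = 0.00387, edgeR). Mki67 was not called in either treatment (-0.70 ± 0.46 and -1.05 ± 0.47).

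The counts of the control colon comparison moved with 1 library: without organoid library 1, 1 gene was higher and 23 lower (16% and 31.3% of all genes), and without library 2, 12 were higher and 4 lower (14.5% and 27.1%). In these fits Cdc6 was at 2.60 and 1.93, Hmgb2 at -3.70 and -1.54 and Ube2c at -2.85 and -1.23, all called. Mcm7 was lost without library 1 (0.55, adjusted p = 0.272, edgeR), Tyms was lost without library 2 (-0.94, adjusted p = 0.136, edgeR), and Mki67 was called lower without library 1 (adjusted p = 0.0109, edgeR). Without TMM, 6 were higher and 5 lower (6901 of 15034 genes called in either direction, against 6833 of 14785 in the main fit). With a spread per group in limma-voom 0 were called in either direction (476 of 14785 genes). With the donor as a block 1 was higher in controls and 0 after ethanol (5197 and 3555 of 14785 genes called). In ethanol libraries, 3 were lower without colon organoid library 2 and 6 without colon tissue library 2, and the higher count fell to 0 without colon organoid library 1 and to 1 without organoid library 2 or colon tissue library 1, 3 or 4. Smooth muscle markers summed to 100 and 210 CPM in control colon organoids and 4623 to 19460 CPM in control colon tissue (155 to 175 and 4675 to 25360 CPM after ethanol). Colonocyte markers summed to 1125 and 2786 against 5391 to 37020 CPM in controls and 10040 and 13890 against 6388 to 24690 CPM after ethanol. Goblet cell markers summed to 307 and 1578 against 15970 to 26020 CPM in controls and 3007 and 3583 against 6492 to 57960 CPM after ethanol. Crypt stem cell markers summed to 2592 and 2359 against 1046 to 1619 CPM in controls. After ethanol these were at 1554 and 1189 against 1410 to 1686 CPM. Their part was not tested.

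Ethanol left 5 of the 40 genes past the threshold in colon organoids. Mcm5, Cdc20, Rrm2 and Ccnb1 fell and Bub1 rose, where edgeR called 5.19% of 12922 genes lower and 12.1% higher, so that the share of the 40 genes called lower was 4 in 40 and the share called higher 1 in 40. The median log2 change was -0.70 over the 40 genes and 0.11 over all genes. By class, 2 of 16 replication genes fell, and 2 of 24 mitosis genes fell and 1 rose.

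Mcm5, a helicase subunit, was at 87.9 and 42.8 CPM in control and at 13.7 and 10.4 CPM in ethanol colon organoids. The groups did not overlap, but with 2 libraries per group this says little. It also held for other genes, 8 of the 40 being apart and lower and 2 apart and higher, Mcm5 included. The log2 change of Mcm5 was -2.24 ± 0.44 (adjusted p = 0.00626, edgeR). Cdc20, the activator of the anaphase-promoting complex, was at 72.2 and 74.5 CPM in controls and at 22.9 and 8.18 CPM after ethanol, a change of -1.94 ± 0.41 (adjusted p = 0.00899, edgeR). Both controls lay close together for Cdc20, unlike for most of the 40 genes. Both genes were called under 11 of 13 alternatives, including without either control library, with adjusted p from 1.84e-05 to 0.724 for Mcm5 and from 3.35e-05 to 0.726 for Cdc20. They were lost when the 4 libraries were fitted alone and with a spread per group in limma-voom. In these 2 fits 0 of 10712 and 0 of 12922 genes were called at all, against 2237 of 12922 in the main fit. Cdc20 overlaps Elovl1 on the other strand, and the strand setting of the counting is unknown here.

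Rrm2, the small subunit of ribonucleotide reductase, was at 110 and 23.2 CPM in controls and at 11.6 and 20.1 CPM after ethanol, a change of -2.01 ± 0.60 (adjusted p = 0.0377, edgeR). Its second control lay next to the ethanol libraries, and without the first control the change was -0.30 (adjusted p = 0.631, edgeR; range over the alternatives 0.00015 to 0.775). Ccnb1, cyclin B1, was at 32.9 and 41.5 CPM in controls and at 13.0 and 19.3 CPM after ethanol (-0.99 ± 0.30, adjusted p = 0.0416, edgeR) and was called under 7 of 13 alternatives, among them without control library 1 (-1.09) and without library 2 (-0.95). Bub1 was at 2.46 and 7.33 CPM in controls and at 13.0 and 12.6 CPM after ethanol (1.80 ± 0.56, adjusted p = 0.044, edgeR) and was called under 3 of 13, with 1.14 without control library 1 (adjusted p = 0.167, edgeR) and 2.50 without library 2. Mki67 (130 and 35.4 against 50.3 and 43.1 CPM) and Pcna (16.2 and 37.9 against 17.6 and 2.23 CPM) were not called, at -0.69 ± 0.51 and -0.96 ± 0.59. Mki67 was at 0.74 without control library 1 (adjusted p = 0.193, edgeR) and was called lower without library 2 (-1.34, adjusted p = 0.0116, edgeR), and Pcna was at -1.37 and -0.34.

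For 20 of the 40 genes control library 1 lay above and control library 2 below both ethanol libraries, so that the direction followed the control chosen. Without control library 1, 18 genes were higher and 4 lower after ethanol, where 28.8% of 13948 genes were higher and 13.1% lower. Without control library 2, 1 was higher and 23 lower, where 18.1% of 13914 genes were higher and 12.5% lower. The higher count was 0 without ethanol library 1 and 2 without ethanol library 2. Without TMM, 0 were higher and 8 lower (2304 of 13170 genes called in either direction, against 2237 of 12922 in the main fit). With the donor number as a block, 0 were higher and 2 lower (1181 of 12922 genes called). Summed crypt stem markers were 2592 and 2359 CPM in the controls and 1554 and 1189 CPM after ethanol, and 9 colonocyte markers were at 1125 and 2786 CPM and at 10040 and 13890 CPM. Their part in these changes was not tested.

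Other cell cycle genes were counted in the same libraries, against the 12.1% of all genes called higher and 5.19% called lower. Of 42 further replication genes 5 rose, near the share of all genes, and 4 fell. Among subunits of the origin recognition complex, Orc3 was at 0.982 and 0 CPM in controls and at 21.4 and 58.7 CPM after ethanol (adjusted p = 0.000477, edgeR), whereas Orc4 was at 70.2 and 105 CPM and at 27.1 and 12.6 CPM (-1.84 ± 0.36, adjusted p = 0.00621, edgeR). Orc1 had no count in controls and was at least 4.98-fold above their floor of 3 counts over the group (1.05 CPM) after ethanol. Rfc5, of the clamp loader, rose from 25.5 and 17.1 to 51.0 and 49.1 CPM, and Pold3, of DNA polymerase delta, fell from 44.2 and 45.2 to 13.4 and 8.92 CPM. Pole2 was called lower, yet its controls were at 64.3 and 0 CPM. Of 42 further mitosis genes 1 rose and 2 fell, below the share of all genes called higher and near that called lower. Nuf2, of the kinetochore, rose (1.96 and 0 to 17.9 and 11.2 CPM), and Knstrn (51.6 and 39.1 to 20 and 10.4 CPM) and Ckap2 fell, the latter with controls at 144 and 0 CPM.

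Of 18 genes of the decision to enter the cycle, 3 rose and 3 fell, and no test of the list was made. Ccnd1, cyclin D1, was at 6570 and 2008 CPM in control colon organoids and at 1352 and 1211 CPM after ethanol (-1.57 ± 0.45, adjusted p = 0.032, edgeR), against 190 to 319 CPM in the jejunum organoids. E2f4, a repressor of the E2F family, fell from 31.9 and 31.8 to 10.2 and 3.72 CPM, and E2f6 fell from 33.9 and 18.3 to 5.98 and 10.4 CPM. The activator E2f3 rose from 20.6 and 33.0 to 33.8 and 58.7 CPM, and E2f2 rose from 0 and 1.22 to 8.09 and 23.0 CPM. Their partner Tfdp1 had no count in controls and was at 6.68 and 3.72 CPM after ethanol, at least 4.95-fold above the floor. Of 10 inhibitors Cdkn1c, p57, rose from 0.491 and 0 to 16.5 and 13.4 CPM, and 0 fell. Without control library 1, Rpa1, Knstrn, Ccnd1 (-0.32, adjusted p = 0.315, edgeR), E2f3, E2f6 and Pole2 were no longer called and Ckap2 was called higher, whereas without library 2 each of the 19 called genes of these lists was called in its direction. These lists were drawn up with earlier results of these data known.

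In jejunum organoids ethanol changed 0 of the 40 genes, where 0% of 12922 genes were called by edgeR and 144 had an unadjusted p under 0.05, none of the 40 among them. In this fit the spread of a gene is shared with the colon organoids. DESeq2, limma-voom and a fit of the jejunum organoids alone called 0 of the 40 as well. Log2 changes of the 40 ran from -0.22 to 0.49, with a median of 0.08 against 0.00 over all genes. Mki67 was at 96.3, 105, 150 and 73.7 CPM in controls and at 98.9, 164, 162 and 117 CPM after ethanol, and the groups overlapped (0.35 ± 0.34). Pcna was at -0.18 ± 0.34, and the smallest p of each class belonged to Mcm7 (0.19 ± 0.24) and Birc5 (0.30 ± 0.29). Ranges that did not overlap were found for 0 of the 40 genes, against 1.39% of all genes higher and 1.97% lower.

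The 2 organoid effects were compared directly. The ethanol effect in the colon was below that in the jejunum for Mcm5, by -2.31 ± 0.52 (adjusted p = 0.0174, edgeR), and for Cdc20, by -1.95 ± 0.49 (adjusted p = 0.0279, edgeR), and above it for 0 of the 40, where 2.23% of all genes were below and 7.2% above. Cdc20 was called under 11 of 20 alternatives and Mcm5 under 18, with adjusted p from 0.000809 to 0.734 and from 0.000374 to 0.722. Without control colon organoid library 1, 18 genes were above and 3 below (25.7% and 8.83% of all genes), and without library 2, 1 was above and 22 below (14.4% and 8.9%). Without ethanol colon organoid library 1, 5 were below, and without library 2, 1 was above and 0 below. Leaving out a jejunum organoid library (control 1, 2 or 4, ethanol 1, 3 or 4) gave 1 below. Mki67 and Pcna differed by -1.04 ± 0.61 and -0.78 ± 0.68 and were not called.

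**Figure D4:**
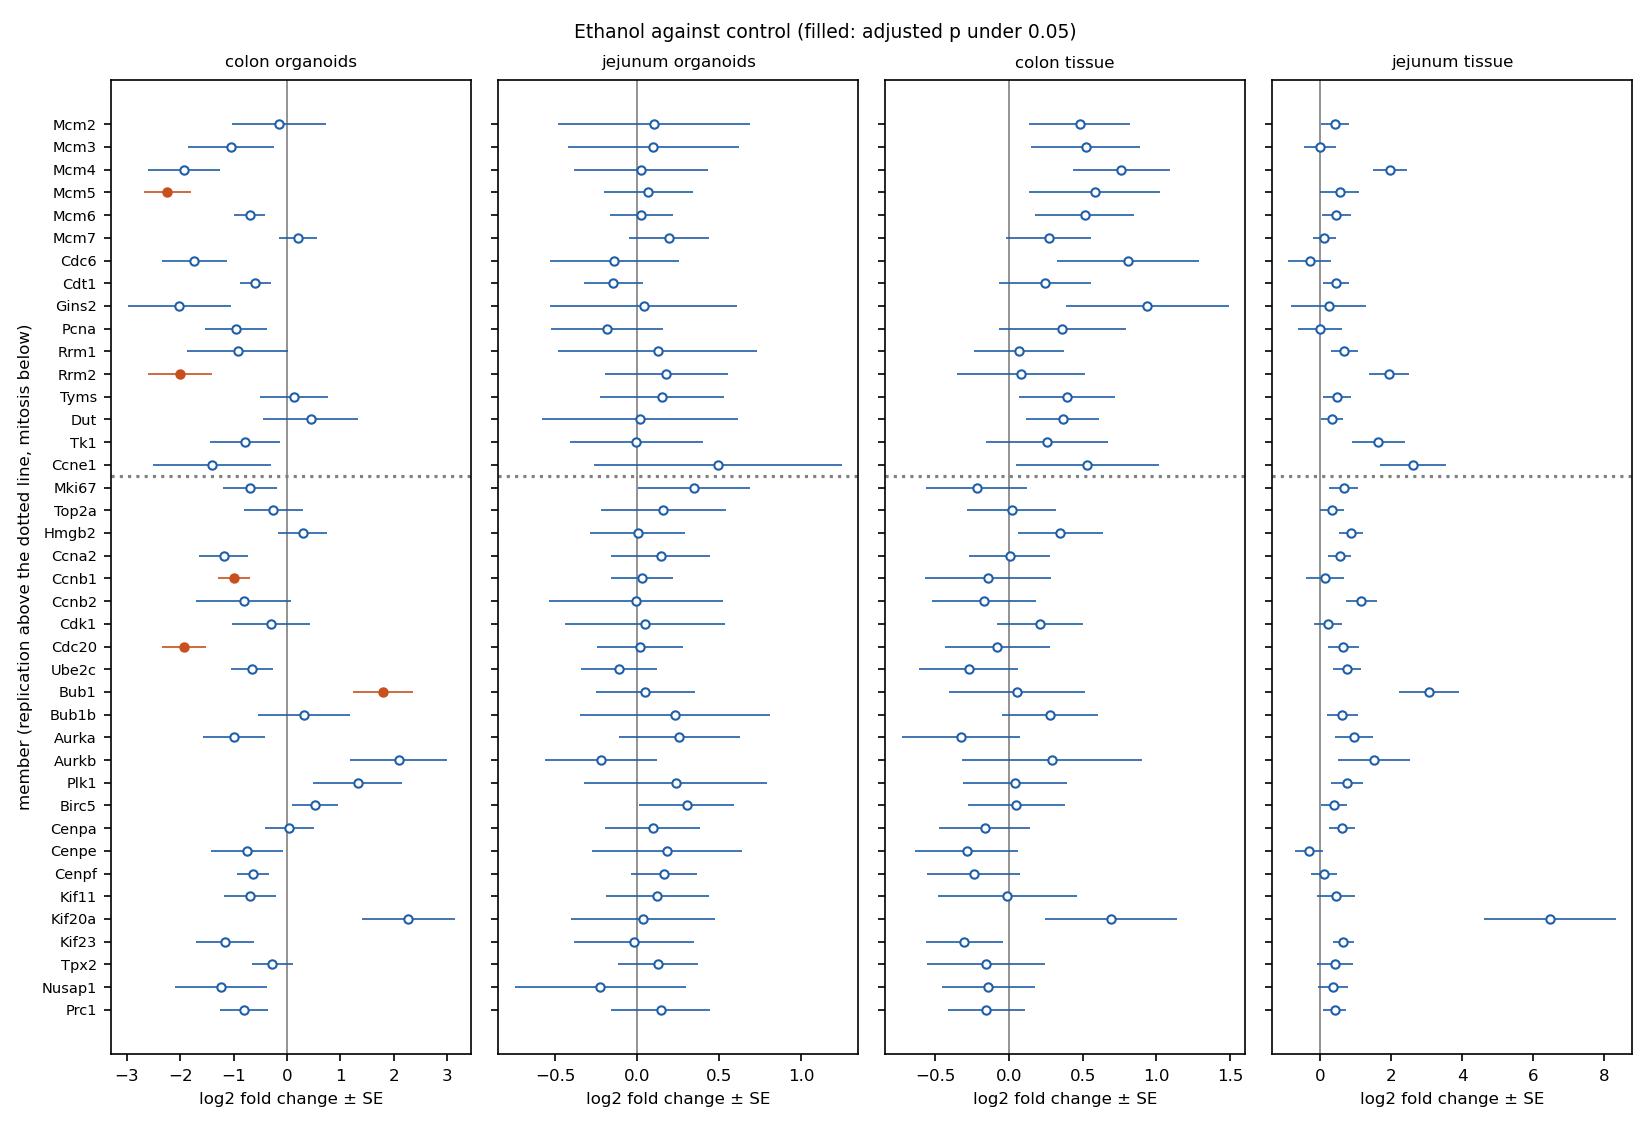
Log2 fold change ± SE of each gene for ethanol against control in colon organoids, jejunum organoids, colon tissue and jejunum tissue (left to right, with separate horizontal scales), filled where the adjusted p was under 0.05. The 5 filled points are all in colon organoids, and the jejunum organoid points lie between -0.22 and 0.49. The Kif20a point of jejunum tissue rests on a control group without a count.

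In colon tissue ethanol changed 0 of the 40 genes by edgeR, where 0% of 13434 genes rose and 0.00744% fell, and 0 by DESeq2. One of the 40 had an unadjusted p under 0.05, the helicase subunit Mcm4, at 26.5, 29.7, 17.6 and 23.8 CPM in controls and at 45.3, 71.1, 32.9 and 25.2 CPM after ethanol, with overlapping ranges (0.76 ± 0.33, adjusted p = 1, edgeR). The log2 change was positive for 16 of 16 replication genes (median 0.43) and for 10 of 24 mitosis genes (median -0.11), against a median of 0.00 over all genes, and the difference between the classes was not tested. The mitosis sum was 2.28 to 2.86 times the replication sum in the 4 control libraries and 1.74 to 1.999 times in the 4 ethanol libraries, without overlap. This ratio was singled out after its values were seen. Genes of a class move together from library to library, so the count of signs is no measure of stability.

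Mki67 was at -0.22 ± 0.34, Pcna at 0.36 ± 0.43 and Kif20a, with the smallest p among mitosis genes, at 0.69 ± 0.45. Ranges that did not overlap were found for 0 of the 40, against 2.38% of all genes higher and 0.893% lower. Of the 42 further replication genes 37 had a positive change, with a median of 0.23, and 0 were called. Crypt stem markers summed to 1046 to 1619 CPM in controls and 1410 to 1686 CPM after ethanol (10 of 11 tested with a positive change, median 0.50, and 1 of the 12 at 0 throughout). Fibroblast markers were at 1112 to 3395 and 608 to 2321 CPM (7 of 8 negative, median -0.56), and colonocyte markers at 5391 to 37020 and 6388 to 24690 CPM (6 of 9 negative, median -0.39). None of these markers was called, and their part was not tested.

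In jejunum tissue ethanol changed 0 of the 40 genes by edgeR or DESeq2 (0% of 13434 genes were called by edgeR), and 9 had an unadjusted p under 0.05 against 1534 of all genes. The log2 change was positive for 36 of the 40, with a median of 0.51 against 0.18 over all genes. The median of the 40 moved with single left-out libraries. It was 0.27 without control library 3 (0.24 over all genes) and 0.80 without control library 1 (0.19 over all genes). As in colon tissue, the count of signs is no measure of stability. Mcm4 was at 3.63, 7.30 and 3.97 CPM in controls and at 16.2, 11.7, 12.5 and 27.2 CPM after ethanol, without overlap (1.97 ± 0.48, adjusted p = 0.167, edgeR). Bub1 was at 0.726, 0 and 1.32 CPM in controls and at 7.62, 9.56, 2.81 and 7.49 CPM after ethanol (3.06 ± 0.83, adjusted p = 0.194, edgeR). Kif20a was at 0 in the controls and at 1.43, 3.72, 1.30 and 1.71 CPM after ethanol, at least 2.43-fold above the floor.

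Ranges that did not overlap were found for 4 of the 40, all higher (Mcm4, Ccne1, Bub1 and Kif20a), against 5.69% of all genes higher and 1.73% lower. Mki67 (0.66 ± 0.41) and Pcna (-0.01 ± 0.62) were not called, and Pcna was at 0.476 CPM in 1 ethanol library and at 7.17, 5.40 and 12.8 CPM in the others. The control libraries were shallow here, at 684906 to 1510057 counts outside Rn45s, and Rn45s took 76.3% to 84.3% of their counts against 53.4% to 80.8% after ethanol. Crypt stem markers were at 308 to 434 CPM and 367 to 603 CPM, and T cell markers at 7.98 to 35.1 CPM and 33.7 to 59.8 CPM. Their part was not tested.

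The ethanol effects in the 2 tissues did not differ past the threshold for any of the 40 genes (0% of all genes called by edgeR, 0 of the 40 by DESeq2, and 5 of the 40 with an unadjusted p under 0.05 in edgeR). Bub1, at -3.01 ± 0.97 in colon relative to jejunum (adjusted p = 0.565, edgeR), and Rrm2, at -1.85 ± 0.71 (adjusted p = 0.671, edgeR), had the smallest p of their classes. Mki67 differed by -0.88 ± 0.53 and Pcna by 0.37 ± 0.75. The ethanol and the segment comparisons share their control libraries, so their values are given side by side and not correlated.

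Of the 40 genes, 9 are overlapped on the opposite strand by another gene of the count table (Mcm7, Gins2, Tk1, Ccna2, Cdc20, Ube2c, Kif20a, Nusap1 and Prc1), and their reads cannot be told apart from that partner's where counting ignored strand. Ube2c lies over Tnnc2, Nusap1 over Oip5 and Kif20a over Cdc23.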

How the data were processed

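The authors deposited raw counts of 3′ tags (QuantSeq) per gene for 27 libraries, made, per the submitters' processing notes, with Trimmomatic 0.32, BWA and HTSeq on mm10. Parameters and the strand used in counting are not given in the sources used here. A second table of normalised values was not used. Counts were fitted as deposited with edgeR 4.0.16 (TMM, filterByExpr by group, robust quasi-likelihood fit; limma 3.58.1 and R 4.3.3), in separate fits of the 12 organoid, the 15 tissue and all 27 libraries, the last for organoids against tissue and for the difference between the segment effects, a test added after values were seen. Rn45s stayed in the fits, while printed CPM leave it out and carry no TMM factor. Total counts ran from 1337068 to 16312562 per library. Their number limits the precision, and floors of 3 counts cover counting error only. DESeq2 1.42.0, limma-voom, other scalings, no filter, groups fitted alone, left-out libraries and a donor block were the alternatives. Where leaving out a library left 1 in a group, that library is assumed to vary like the other groups. The fitting script was tested on simulated counts.

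The 40 genes, the lists and the tests were chosen with earlier results of these data known. In each comparison the text names Mki67 and Pcna, each called gene for ethanol, and otherwise up to 3 called genes per direction and class by smallest p, or the smallest p where none was called. Levels of other genes describe the groups. Samples were grouped by title. The labels carry donor numbers: 1 and 2 in colon organoids, 1 to 3 in control jejunum tissue and 1 to 4 in the other groups. The block follows these numbers, and whether a number names one mouse in colon, jejunum, organoid and tissue could not be checked here. Within a treatment, deviations of same-numbered libraries correlated between -0.109 and 0.122. Between control and ethanol, where a shared number is not a shared animal, the range was -0.174 to 0.594. In no comparison with 3 or more pairs were all correlations over 0.1. Nothing says that libraries came from separate cultures, so p-values measure the spread between these libraries. Within a fit each gene has 1 spread shared by all groups, so a p-value does not measure the spread of the compared groups alone. The median coefficient of variation of the 40 genes was 89.88% in control colon organoids. In control and ethanol jejunum organoids, which share that fit, it was 20.63% and 12.05%. Gene positions came from GENCODE vM21 and promoters from RefSeq, both on GRCm38. Markers not in the count table (6 genes) were left out.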

Additional observations from a re-analysis of the deposited data

Results flagged for a closer look

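Within groups of 4 libraries, 12 single values stood apart from the other 3 by Dixon's 95% criterion, out of 210 sets of values tested, and chance flags about 1 in 20. In jejunum organoids the highest control library for Mcm5 was at 126.6 CPM. Ethanol library 4 was the highest for Mcm6 (174.2 CPM), Dut (198.1 CPM) and Plk1 (169.9 CPM) and the lowest for Pcna (81.45 CPM), and ethanol library 1 was the lowest for Tyms (35.38 CPM). In colon tissue, control library 3 was the lowest for Cenpf (41.15 CPM), and ethanol library 2 was the highest for Cdc6 (15.25 CPM), Gins2 (17.23 CPM), Plk1 (55.27 CPM) and Kif20a (23.57 CPM). In jejunum tissue, ethanol library 2 was the highest for Kif20a (3.718 CPM).

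By edgeR's interaction test, the change with ethanol was more negative in colon than in jejunum organoids for Mcm5 (-2.313 on the log2 scale) and for Cdc20 (-1.951).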

How the results depend on the processing

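The counts of called genes among the 40 are given here as higher and lower. Counts over all genes moved with the setting as well. For ethanol in colon organoids, the 4 libraries alone and a spread per group called 0 of all genes, against 2237 in the main fit. For colon against jejunum in control organoids, a spread per group called 1032 of all genes and the donor block 1064, against 6436. For ethanol in colon organoids (1 and 4), DESeq2 gave 2 and 7, limma-voom 0 and 2, the fit of the 4 libraries alone 0 and 0, DESeq2 size factors in edgeR 0 higher and no filter 0 higher, no TMM 0 and 8, a spread per group 0 and 0, and left-out libraries 0 to 18 and 3 to 23. For the difference of the ethanol effects in organoids (0 and 2), DESeq2 gave 4 lower, a spread per group 0 lower, and left-out libraries 0 to 18 and 0 to 22. For colon against jejunum, a spread per group gave 1 lower in control organoids, left-out libraries 0 to 2 and 14 to 35 there and 0 to 3 lower in control tissue, and no TMM 25 and 0 in control and 17 and 1 in ethanol tissue. For organoids against tissue in control colon (4 and 7), the groups alone gave 1 and 2, a spread per group 0 and 0, and left-out libraries 1 to 12 and 4 to 23. In ethanol colon (2 and 11), no TMM, no filter and TMM without Rn45s each gave 1 higher, limma-voom 6 lower, a spread per group 1 and 1, and left-out libraries 0 to 2 and 3 to 13. For the difference between the segment effects in controls (24 lower), a spread per group gave 9.

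With the donor number as a replicate block, ethanol in colon organoids gave 0 and 2, the organoid difference 1 lower, colon against jejunum 4 lower in control and 8 lower in ethanol organoids, and organoids against tissue in the colon 1 higher in control and 0 higher in ethanol libraries. The block kept every other count within 1.5 times of the unblocked one. Across treatments a shared number is not a shared animal.

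Some values changed sign when 1 library was left out. Without control colon organoid library 1, Mki67 was at 0.74 for ethanol in colon organoids, 0.39 in the organoid difference and -1.96 for colon against jejunum in control organoids, and Ccne1 was at -7.41 for organoids against tissue in control colon, a value fitted to 1 library without a count and no bound (at least 1.61-fold lower). Without library 2 these were at -1.34, -1.68, 0.12 and 3.52. Pcna, near 0 for ethanol in jejunum tissue, ranged from -0.61 (without ethanol library 4) to 0.31 (without ethanol library 1), with 0.25, 0.00598 and 0.0793 without control library 1 and ethanol libraries 2 and 3. The cause was not tested. The counts for ethanol in jejunum organoids and both tissues stayed at 0 under each alternative run, and those for organoids against tissue in the jejunum kept within 1.5 times. Leaving out TMM moved the median of all genes by -0.50 to 0.53 on the log2 scale. Depth limits the control jejunum tissue and control colon organoid library 2.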
